A study of Saccharomyces cerevisiae S288C with 4 samples.

Results

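The transcripts of 46 genes for RNA polymerase II (Pol II), its elongation factors and the machinery that forms mRNA 3′ ends were followed in budding yeast lacking Tho2, a core subunit of the THO complex. The 46 genes were chosen by name, for what their products do, out of 6396 genes in the table, and all 46 were found and passed the filter on low counts. Total RNA was sequenced from *tho2Δ* cells (FY254), which carry the KanMX4 marker in place of *THO2*, and from wild-type (WT) cells of BY4741, with 2 libraries of each. Both strains are haploid MATa and share *ura3Δ0*, *leu2Δ0*, *his3Δ1* and *met15Δ0*, and both were grown in YPD to mid-log phase at 30 °C. Each genotype is 1 strain, and neither the labels nor the methods say whether the libraries of a strain came from separate cultures. The p-values therefore measure the spread between these libraries, which may be technical.

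Pol II transcribes every mRNA gene. Its largest subunit, Rpo21, ends in a long carboxy-terminal domain (CTD) of repeated heptads that kinases and phosphatases mark and unmark as the enzyme travels. Spt4-Spt5, Spt6, FACT and the Paf1 complex ride with it, hold the enzyme on the template and take nucleosomes apart and put them back. At the end of a gene, cleavage factor I (CF I) and the cleavage and polyadenylation factor (CPF) read signals in the RNA, cut it and add the poly(A) tail, after which the exonuclease Rat1 degrades the RNA still being made and helps release the polymerase (the torpedo model). THO binds nascent RNA on the same elongating polymerase and links transcription to mRNA packaging and export, so these are the partners that THO works beside.

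The libraries held 31417222 and 36989697 counts in *tho2Δ* and 33543267 and 32401027 counts in WT. The 46 genes took 0.282% and 0.304% of the counts in *tho2Δ* libraries, against 0.260% and 0.186% in WT libraries. *THO2* had 1 count in each *tho2Δ* library, against 4011 and 2457 in WT. *URA3* and *MET17* (*MET15*) had a count of 0 in every library. *HIS3*, of which *his3Δ1* is a partial deletion, had 586 and 674 counts in *tho2Δ* and 841 and 981 in WT. The a-cell genes *STE2*, *MFA1*, *MFA2* and *BAR1* had 434 to 42805 counts. The alpha-cell genes *STE3*, *MF(ALPHA)1* and *MF(ALPHA)2* were lower, at 4 to 149 counts. *LEU2*, which is deleted in both strains, had 511 and 4276 counts in *tho2Δ* and 0 and 2512 in WT, which goes against the genotype in 3 of the 4 libraries. *SCR1*, a noncoding RNA that Pol III makes, held 13.7% of counts in each *tho2Δ* library, against 8.46% and 7.71% in WT. Another noncoding RNA, *LSR1*, held 2.56% and 2.29% in *tho2Δ*, against 1.67% in WT library 3 and 5.20% in WT library 4. The part of these 2 RNAs in the results was not tested. The TMM scaling factors, which correct library size for composition, were 1.18 and 1.17 in *tho2Δ* and 1.003 and 0.723 in WT, so WT library 4 stood apart. The median gene differed between the *tho2Δ* libraries by 0.0921 on the log2 scale and between the WT libraries by 0.245.

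Of the 46 genes, 4 were higher and 4 were lower in *tho2Δ* cells, and 38 were not called, at an adjusted p under 0.05 (edgeR's quasi-likelihood test, Benjamini-Hochberg adjusted over 5890 genes). Among all genes tested, 18.8% were higher and 19.1% were lower, 38.0% together, so a smaller share of these genes was called than of all genes. The genes that rose all belong to 3′ end formation, namely *PCF11*, *GLC7*, *PAP1* and *SSU72*. The genes that fell were the exonuclease gene *RAT1*, its partner *RAI1*, and the elongation factor genes *SPT6* and *CTR9*. No gene changed by 2-fold, and the median log2 fold change (*tho2Δ* over WT) was -0.06, against 0.01 over all genes tested. Counts per 1000000 after TMM scaling (CPM) did not overlap between the genotypes for 29 of the 46 genes, 12 of them above WT and 17 below, against 74.9% of all genes. The calls depended on the libraries in the fit. They were lost with either *tho2Δ* library left out, and more genes passed, of the 46 and of all genes, with a WT library left out. In each of these fits the share called was smaller among the 46 than among all genes. Their median log2 fold change was -0.08 and -0.11 without *tho2Δ* library 3 or 4, and -0.03 and -0.06 without WT library 3 or 4.

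**Figure D1:**
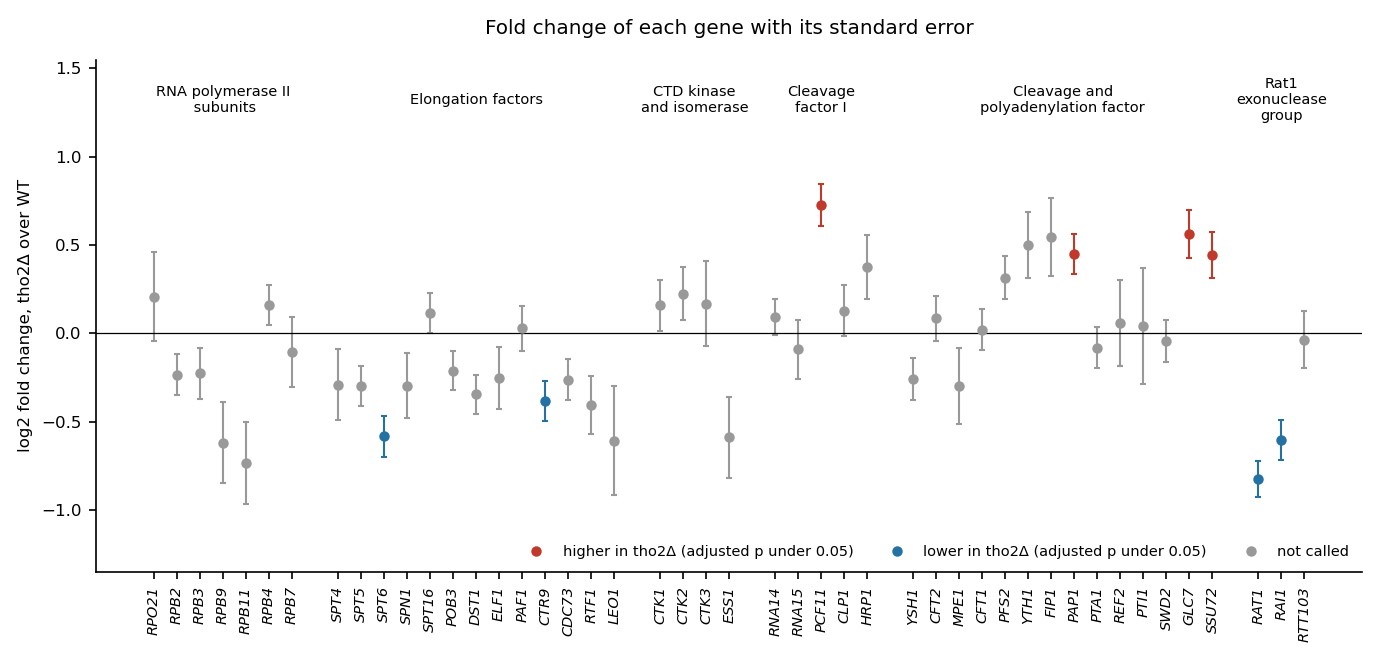
log2 fold change (*tho2Δ* over WT, vertical axis) of each of the 46 genes, grouped by the role of its product, with bars for the standard error from edgeR. The 2 called elongation factor genes and the 3 genes of the Rat1 group lie below 0, and the 4 called genes of 3′ end formation lie above it, the farthest being *RAT1* at -0.83 and *PCF11* at 0.73.

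With all 4 libraries in the fit, the transcript of the nuclear exonuclease was the most reduced of the 46. *RAT1* (YOR048C), on chromosome XV from 418630 to 421650 in build R64, encodes the 5′ to 3′ exoribonuclease that degrades the RNA left on the polymerase after cleavage. It had 53.6 and 51.1 CPM in *tho2Δ* libraries, against 91.2 and 94.2 CPM in WT libraries. The libraries of each strain lay close together and the strains did not overlap. The log2 fold change was -0.83 (SE 0.10, adjusted p = 0.00363, edgeR's quasi-likelihood test, Benjamini-Hochberg adjusted), a level 1.77-fold higher in WT. *RAI1* (YGL246C, chromosome VII from 37617 to 38780) encodes the cofactor that stabilises Rat1 and removes faulty 5′ ends. *RAI1* had 20.4 and 19.4 CPM in *tho2Δ*, against 30.0 and 30.4 CPM in WT, again without overlap. Its log2 fold change was -0.60 (SE 0.11, adjusted p = 0.0118, edgeR with Benjamini-Hochberg adjustment). The third gene of the group, *RTT103*, encodes an adaptor that binds the phosphorylated CTD and brings Rat1 to the end of the gene, and it did not differ beyond its error, with a log2 fold change of -0.04 (SE 0.16).

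Within a library, the ratio of 2 transcripts does not depend on how libraries are scaled. In TPM (the authors' values per gene length, which sum to the same total in each library), *RAT1* over *RTT103* was 1.57 and 1.36 in *tho2Δ*, against 2.24 and 2.89 in WT. *RAT1* over *RAI1* was 1.01 and 1.01 in *tho2Δ*, against 1.17 and 1.19 in WT. Both ratios were lower in each *tho2Δ* library than in each WT library, and no test was run on them. In TPM without further scaling, *RAI1* was at 17.2 and 16.6 in *tho2Δ* and at 22.2 and 16.9 in WT, so the strains overlapped on that scale.

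The promoters of the genes that fell are shown because each holds a match to the core of the Reb1 site. Reb1 is a general regulatory factor that keeps promoters free of nucleosomes and also ends Pol II transcription at its sites. The windows run from 250 bases before to 50 bases after the start codon (R64, read on the strand of the gene). Capitals mark 4 motif cores, searched on both strands, with no match overlapping a match of another motif: Reb1 (CGGGTAA), PAC (GATGAG), RRPE (AAAAATTTT) and STRE (AGGGG). PAC and RRPE are the elements known from genes for ribosome synthesis, and STRE is the element of the general stress response. The promoter of *PCF11*, which rose, is printed beside them since it holds PAC and Reb1 matches too.
RAT1 promoter, chrXV:421601-421900, minus strand: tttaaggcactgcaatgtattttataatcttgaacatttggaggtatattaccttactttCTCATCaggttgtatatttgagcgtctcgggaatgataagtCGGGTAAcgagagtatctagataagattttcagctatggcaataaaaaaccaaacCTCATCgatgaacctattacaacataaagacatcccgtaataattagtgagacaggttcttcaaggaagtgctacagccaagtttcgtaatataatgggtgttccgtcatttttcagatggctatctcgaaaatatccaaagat
RAI1 promoter, chrVII:38731-39030, minus strand: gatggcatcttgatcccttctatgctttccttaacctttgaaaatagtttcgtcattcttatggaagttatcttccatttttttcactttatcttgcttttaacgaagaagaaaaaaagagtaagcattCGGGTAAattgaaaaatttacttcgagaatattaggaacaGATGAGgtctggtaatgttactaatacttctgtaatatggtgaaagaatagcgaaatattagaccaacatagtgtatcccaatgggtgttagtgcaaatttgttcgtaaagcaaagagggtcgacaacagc
SPT6 promoter, chrVII:720159-720458, plus strand: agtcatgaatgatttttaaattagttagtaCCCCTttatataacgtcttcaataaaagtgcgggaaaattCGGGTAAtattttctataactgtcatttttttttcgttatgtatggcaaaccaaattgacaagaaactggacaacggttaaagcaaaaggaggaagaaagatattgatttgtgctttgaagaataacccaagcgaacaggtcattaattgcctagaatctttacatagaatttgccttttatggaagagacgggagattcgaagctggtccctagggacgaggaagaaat
CTR9 promoter, chrXV:52739-53038, minus strand: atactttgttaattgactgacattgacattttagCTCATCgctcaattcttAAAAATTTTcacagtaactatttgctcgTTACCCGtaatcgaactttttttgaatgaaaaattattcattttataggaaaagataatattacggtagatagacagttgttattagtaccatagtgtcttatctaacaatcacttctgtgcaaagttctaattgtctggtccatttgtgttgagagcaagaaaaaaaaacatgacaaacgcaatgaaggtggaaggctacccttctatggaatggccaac
PCF11 promoter, chrIV:923757-924056, minus strand: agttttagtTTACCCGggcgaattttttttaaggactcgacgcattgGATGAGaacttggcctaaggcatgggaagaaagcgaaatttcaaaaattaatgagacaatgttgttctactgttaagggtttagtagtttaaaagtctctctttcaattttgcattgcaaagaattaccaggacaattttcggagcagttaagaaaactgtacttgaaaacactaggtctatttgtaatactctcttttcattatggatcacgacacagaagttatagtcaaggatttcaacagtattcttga

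A Reb1 core was found in 11 of the 46 promoters (23.9%), against 7.08% of 6001 promoters of protein-coding genes. By call, it was in 4 of the 4 genes that fell, 1 of the 4 that rose and 6 of the 38 not called, and over all protein-coding genes in 9.31% of 1117 that were lower and 4.39% of 1093 that were higher. In *RAT1* it ended 142 bases before the start codon, between PAC matches at 184 and 88 bases, and in *RAI1* at 114 bases with 1 PAC match at 75 bases. *CTR9* held PAC, RRPE and Reb1 matches at 210, 190 and 164 bases before the start codon, and *SPT6* held Reb1 at 173 and STRE at 215 bases with no PAC. PAC was in 11 of the 46 promoters (23.9%), close to the 20.4% of all promoters. RRPE was in 4 (8.70%, against 6.98%) and STRE in 4 (8.70%, against 21.6%). By call, PAC was in 3 of the 4 genes that fell, 1 of the 4 that rose and 7 of the 38 not called. RRPE was in 1, 0 and 3 of these, and STRE in 1, 1 and 2. Over all protein-coding genes, PAC was in 38% of those lower and 14.6% of those higher. RRPE was in 21.7% and 1.65%, and STRE in 11.5% and 37.2%. The PAC matches of *RPB2*, *RTF1* and *CLP1* and the STRE match of *RPB11* lie after the start codon. A match is a description of the letters, not evidence of a bound factor, and no test was run on these shares.

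Among the genes of 3′ end formation, the largest rise was in *PCF11*. *PCF11* (YDR228C, chromosome IV from 921926 to 923806) encodes the subunit of cleavage factor IA that grips the CTD and is needed for both cleavage and termination. It had 27.3 and 25.1 CPM in *tho2Δ* libraries, against 16.2 and 15.5 CPM in WT libraries. Both *tho2Δ* libraries lay above both WT libraries, and the log2 fold change was 0.73 (SE 0.12, adjusted p = 0.00817 by edgeR's quasi-likelihood test, Benjamini-Hochberg adjusted), or 1.65-fold. Among 13 alternative settings, 11 called *PCF11* higher, and the 2 that did not were those that left out a *tho2Δ* library (adjusted p = 0.106 and 0.0730).

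None of the other 4 genes of cleavage factor I was called by edgeR or DESeq2. *RNA14* encodes the scaffold of cleavage factor IA, and its levels were 68.9 and 65.1 CPM in *tho2Δ*, against 62.9 and 62.6 CPM in WT. The *tho2Δ* libraries lay just above the WT libraries, with a log2 fold change of 0.09 (SE 0.10) that did not pass the test. *RNA15*, for the subunit that binds A-rich RNA, and *CLP1*, for an ATP-binding subunit, had log2 fold changes of -0.09 (SE 0.17) and 0.13 (SE 0.14) and overlapped between the strains. *HRP1*, whose product is cleavage factor IB and binds the UA-rich efficiency element, had 112 and 113 CPM in *tho2Δ*, against 71.4 and 102 CPM in WT, without overlap. Its log2 fold change of 0.38 (SE 0.18) did not pass, and 4 of the 13 alternatives called *HRP1* higher, among them library totals (0.86, adjusted p = 0.0238, edgeR with Benjamini-Hochberg adjustment) and the fit without WT library 4 (0.65). *PCF11* stood at 0.427 and 0.417 of the *RNA14* level in *tho2Δ* libraries, against 0.278 and 0.267 in WT libraries, in TPM. So the ratio of these partner transcripts was higher in both *tho2Δ* libraries, whatever the scaling. The widest such contrast, noticed after the values were seen, was *PCF11* over *RAT1*, at 0.817 and 0.790 in *tho2Δ*, against 0.285 and 0.263 in WT.

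Of the 14 CPF genes followed here, 3 were higher (21.4%, against 18.8% of all genes), 0 were lower and 11 were not called by edgeR. Of the 14, 5 had an unadjusted p under 0.05, and DESeq2 called 2 higher and 0 lower. *SYC1* is not among the 14 and was counted with the CTD and capping enzymes. In the polymerase module the called gene was *PAP1* (YKR002W, chromosome XI from 443232 to 444938), which encodes the poly(A) polymerase. *PAP1* had 42.2 and 44.3 CPM in *tho2Δ* libraries, against 32.8 and 30.6 CPM in WT libraries. The strains did not overlap, and the log2 fold change was 0.45 (SE 0.12, adjusted p = 0.0317, edgeR's quasi-likelihood test, Benjamini-Hochberg adjusted). *FIP1* encodes the flexible protein that tethers Pap1 to the complex, and per gene length it is the lowest transcript of this module. *FIP1* had 7.96 and 10.7 CPM in *tho2Δ*, against 7.02 and 5.76 CPM in WT, so the *tho2Δ* libraries were both higher but lay nearly as far from each other as the strain means. Its log2 fold change of 0.54 (SE 0.22, adjusted p = 0.102, edgeR with Benjamini-Hochberg adjustment) did not pass. The zinc-finger subunit gene *YTH1* and the WD-repeat scaffold gene *PFS2* had values of 0.50 (SE 0.19) and 0.32 (SE 0.12), and *CFT1*, for the largest RNA-binding scaffold, had 0.02 (SE 0.12). The 5 genes of this module all had values above 0, of which 1 passed.

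The other called CPF genes encode protein phosphatases. *GLC7* (YER133W, chromosome V from 432495 to 433958, with 2 exons) encodes the catalytic subunit of protein phosphatase 1, which also acts in glycogen metabolism and mitosis. *GLC7* had 227 and 224 CPM in *tho2Δ*, against 169 and 137 CPM in WT, with no overlap. The log2 fold change was 0.56 (SE 0.14, adjusted p = 0.0262, edgeR with Benjamini-Hochberg adjustment). *SSU72* (YNL222W, chromosome XIV from 229094 to 229714) encodes a CTD phosphatase that removes marks laid down early in transcription. *SSU72* had 15.6 and 14.5 CPM in *tho2Δ*, against 11.2 and 10.97 CPM in WT, also with no overlap. Its log2 fold change was 0.44 (SE 0.13, adjusted p = 0.0464, edgeR with Benjamini-Hochberg adjustment), just under the threshold, and 6 of the 13 alternatives kept the call. It was lost in DESeq2 (adjusted p = 0.0988, Benjamini-Hochberg), among others. The 4 remaining genes followed here in the phosphatase module (*PTA1*, *REF2*, *PTI1* and *SWD2*) lay between -0.08 and 0.06, and the strains overlapped in all of them. In the nuclease module, the endonuclease gene *YSH1* was at -0.26 (SE 0.12), *CFT2*, its catalytically inactive relative, at 0.08 (SE 0.13) and *MPE1*, for a RING-domain subunit, at -0.30 (SE 0.22), and none was called. The poly(A) polymerase transcript stood at 1.68 and 1.68 of the endonuclease transcript (*PAP1* over *YSH1*, TPM) in *tho2Δ* libraries, against 1.02 and 1.04 in WT libraries. This pair was chosen with results of these data known. Another such ratio, *SPT6* over *SPT5*, separated the strains less, at 1.88 and 1.67 in *tho2Δ*, against 1.95 and 2.38 in WT.

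**Figure D2:**
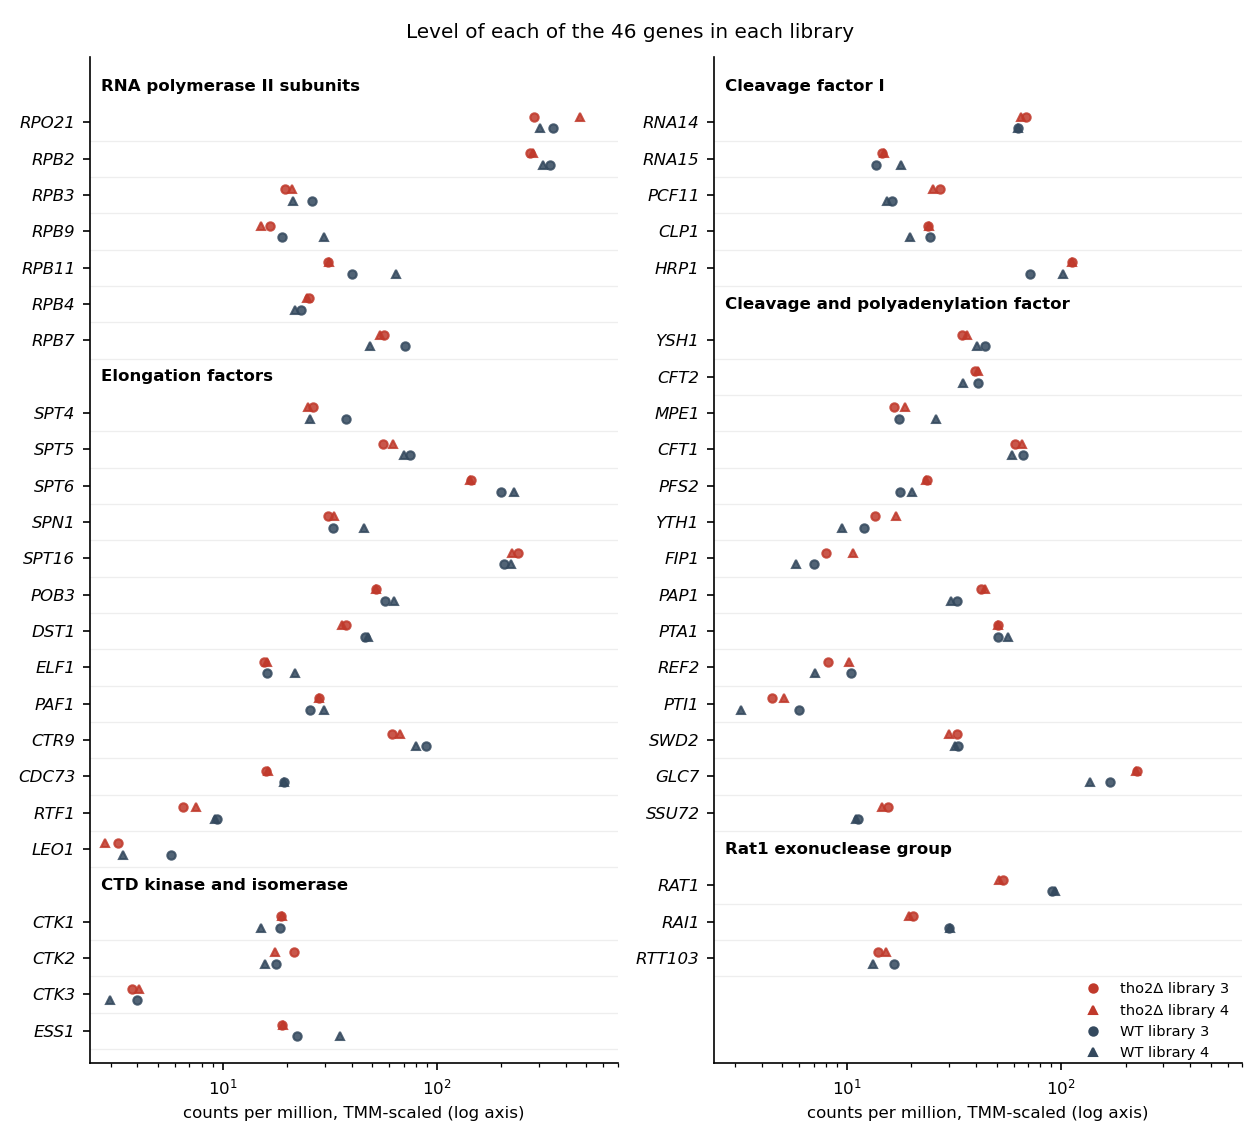
CPM scaled by TMM (horizontal log axis) of each gene in each library, with *tho2Δ* (red) above WT (dark blue) in each row, and circles for library 3 and triangles for library 4. *RAT1*, *RAI1* and *SPT6* show the red points left of the dark ones, *PCF11*, *GLC7* and *PAP1* show them on the right, and *RPO21* shows the 2 red points apart, at 284 and 468 CPM.

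Among the 13 elongation factor genes, 2 were lower (15.4%, against 19.1% of all genes), 0 were higher and 11 were not called by edgeR, with 4 at an unadjusted p under 0.05, and DESeq2 called 1 lower and 0 higher. *SPT6* (YGR116W, chromosome VII from 720409 to 724764) encodes the histone chaperone that binds the linker before the CTD and rebuilds nucleosomes behind the polymerase. It had 144 and 143 CPM in *tho2Δ* libraries, against 201 and 229 CPM in WT libraries. The *tho2Δ* libraries were nearly equal and below both WT libraries, and the log2 fold change was -0.58 (SE 0.12, adjusted p = 0.0143 by edgeR's quasi-likelihood test, Benjamini-Hochberg adjusted). *CTR9* (YOL145C, chromosome XV from 49555 to 52788) encodes the scaffold of the Paf1 complex, which promotes histone methylation and ubiquitylation during elongation. *CTR9* had 62.0 and 67.6 CPM in *tho2Δ*, against 89.0 and 79.9 CPM in WT, without overlap. Its log2 fold change was -0.38 (SE 0.11, adjusted p = 0.0471, edgeR with Benjamini-Hochberg adjustment), close to the threshold. The call held in 4 of the 13 alternatives and was lost in DESeq2 (adjusted p = 0.0575, Benjamini-Hochberg), and with library totals the log2 fold change turned to 0.05, against a median of 0.45 over all genes in that fit.

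The rest of the elongation genes gave mostly small values below 0 that did not pass. In the Paf1 complex, *RTF1*, *CDC73* and *LEO1* were at -0.41 (SE 0.16), -0.26 (SE 0.12) and -0.61 (SE 0.31), and *PAF1* itself at 0.03 (SE 0.13). *LEO1* is the lowest transcript of all 46 per gene length, with 120 and 123 counts in *tho2Δ* and 194 and 80 in WT. *SPT4* and *SPT5*, for the heterodimer that closes the clamp over the DNA, were at -0.29 (SE 0.20) and -0.30 (SE 0.11). *DST1*, for TFIIS, the factor that rescues backtracked polymerase, was at -0.35 (SE 0.11, adjusted p = 0.0578, edgeR with Benjamini-Hochberg adjustment), and *ELF1* at -0.25 (SE 0.18). *SPN1*, a partner of Spt6, was at -0.30 (SE 0.18), and the FACT genes *SPT16* and *POB3* at 0.12 (SE 0.11) and -0.21 (SE 0.11). Of the 13 values, 11 were below 0 (84.6%), against 49.4% of all genes tested, and their median was -0.30. With library totals the median was 0.14, against 0.45 over all genes in that fit. A change of scaling shifts every gene by nearly the same amount, so this is no separate check on these 13. These genes share their 4 libraries and are not independent, and no test was run on the group.

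None of the 7 genes for subunits found only in Pol II was called by edgeR, with 2 at an unadjusted p under 0.05, and DESeq2 called 1 of them lower, *RPB11*. *RPO21* (YDL140C, chromosome IV from 205360 to 210561) encodes the largest subunit and is the longest of the 46 genes. It had 284 and 468 CPM in *tho2Δ* libraries, against 348 and 304 CPM in WT libraries. The *tho2Δ* libraries lay on opposite sides of the WT libraries, and the log2 fold change of 0.21 (SE 0.25, adjusted p = 0.548, edgeR with Benjamini-Hochberg adjustment) averages values that disagree. It was 0.52 without *tho2Δ* library 3 and -0.20 without *tho2Δ* library 4. The raw counts were 10490 and 20320 in *tho2Δ*, so the gap is far beyond counting error. The *tho2Δ* libraries differed by 0.72 on the log2 scale for *RPO21*, the widest such gap among the 46 genes, whose median was 0.0739. Of 3049 genes averaging 1000 counts or more per library, 4 had a wider rise in *tho2Δ* library 4 over library 3. These 4 were *LEU2*, which should be absent, the cell wall gene *CIS3* and 2 copies of the 18S ribosomal RNA gene. *RPB2*, for the other large subunit, showed no such gap, at 272 and 281 CPM in *tho2Δ*, against 337 and 314 CPM in WT, with a log2 fold change of -0.23 (SE 0.12). The ratio of *RPO21* to *RPB2* in TPM was 0.738 and 1.18 in *tho2Δ*, against 0.729 and 0.684 in WT, so *tho2Δ* library 4 alone stood out.

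The heptads that *RPO21* encodes are the surface on which Ctk1, Ess1, Ssu72, Pcf11 and Rtt103 act or bind, and a few are shown here for that reason. In the R64 coding sequence, 25 heptads follow each other in frame from residue 1542 to residue 1716 of 1733. The run was counted for as long as a heptad differed from the consensus at no more than 2 positions, so its ends depend on that limit. Of these, 19 match the consensus of tyrosine, serine, proline, threonine, serine, proline and serine in full, 4 differ at 1 position and 2 at 2 positions. Capitals mark the codons for the serines of the consensus, which are sites of phosphorylation. The first and last repeats lack the final serine, and repeats 3 and 12 are full matches that use different serine codons.
repeat 1, chrIV:205918-205938, minus strand: tttTCTccaactTCCccaaca
repeat 3, chrIV:205876-205896, minus strand: tacTCAccaacaTCAccaTCG
repeat 12, chrIV:205687-205707, minus strand: tacTCTcccacgTCGccaAGC
repeat 25, chrIV:205414-205434, minus strand: tacAGCccaggaTCTcctgca

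For 2 of the smaller Pol II subunits, WT library 4 lay far above the other libraries. *RPB11* and *RPB9*, singled out after their values were seen, had log2 fold changes of -0.74 (SE 0.23, adjusted p = 0.0566) and -0.62 (SE 0.23, adjusted p = 0.0838) from edgeR with Benjamini-Hochberg adjustment. *RPB11*, which pairs with Rpb3 in the assembly platform of the enzyme, had 31.1 and 31.5 CPM in *tho2Δ* libraries, against 40.1 and 64.3 CPM in WT libraries. *RPB9*, which contributes to proofreading, had 16.6 and 15.1 CPM in *tho2Δ* libraries, against 19.0 and 29.8 CPM in WT libraries. In both genes the WT libraries were farther from each other than WT library 3 was from *tho2Δ*. Without WT library 4 the log2 fold changes were -0.37 and -0.27. *ESS1*, for the prolyl isomerase that twists the CTD, had the same shape, with 19.0 and 19.1 CPM in *tho2Δ*, against 22.2 and 35.2 CPM in WT, and a log2 fold change of -0.59 (SE 0.23) that was -0.23 without WT library 4. *RPB3* and the stalk genes *RPB4* and *RPB7* were at -0.23 (SE 0.14), 0.16 (SE 0.11) and -0.11 (SE 0.20). The genes of the CTD kinase complex CTDK-I, which phosphorylates the CTD within genes, were at 0.16 (SE 0.14) for the kinase *CTK1*, 0.22 (SE 0.15) for its cyclin *CTK2* and 0.17 (SE 0.24) for *CTK3*. None of these 4 CTD enzyme genes was called by edgeR or DESeq2, with 1 of them, *ESS1*, at an unadjusted p under 0.05.

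Genes for the other RNA polymerases gave a different picture. Of 19 genes for subunits of Pol I, which makes ribosomal RNA, or Pol III, which makes tRNA and 5S rRNA, 17 were lower, 0 were higher, and *RPA14* and *RPC11* were not called, against 19.1% of all genes lower. Their median log2 fold change was -0.80, with *RPA43* at -1.48 (SE 0.13), *RPA190* at -1.30 (SE 0.14) and *RPA49* at -1.16 (SE 0.11) as those with the smallest p. Of 5 genes for subunits shared by all 3 polymerases, *RPO26* at -0.85 (SE 0.12), *RPB8* at -0.91 (SE 0.14) and *RPB5* at -0.72 (SE 0.11) were lower and 0 were higher by edgeR. *RPB10* and *RPC10* were not called, with *RPB10* at -1.23 (SE 0.40, adjusted p = 0.0627, edgeR with Benjamini-Hochberg adjustment), and DESeq2 called 4 of the 5 lower, *RPB10* among them. The 7 genes found only in Pol II had a median of -0.23. Per library, the geometric mean TPM of the Pol II genes was 2.03 and 2.27 times that of the Pol I and Pol III genes in *tho2Δ*, against 1.38 and 1.43 times in WT. Without *RPO21* the ratios were 2.02 and 2.104 in *tho2Δ*, against 1.37 and 1.46 in WT. The ratio was thus higher in each *tho2Δ* library than in each WT library, with or without *RPO21*, and no test was run on it. PAC was found in 16 of the 19 promoters of the Pol I and Pol III genes (84.2%) and in 11 of the 46 promoters described here (23.9%). It was in 0 of the 5 promoters of the shared subunit genes, whose median log2 fold change was -0.85. RRPE was in 12 of the 19 (63.2%) and in 2 of the 5 (40%). It was in 4 of the 46 (8.70%) and in 6.98% of all promoters. The part of PAC or RRPE in these changes was not tested. With library totals, 3 of the 19 genes were called lower, against 5.14% of all genes in that fit. With *tho2Δ* library 3 or 4 left out, fewer of the 19 passed than in the main fit, and their median was -0.85 and -0.77.

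**Figure D3:**
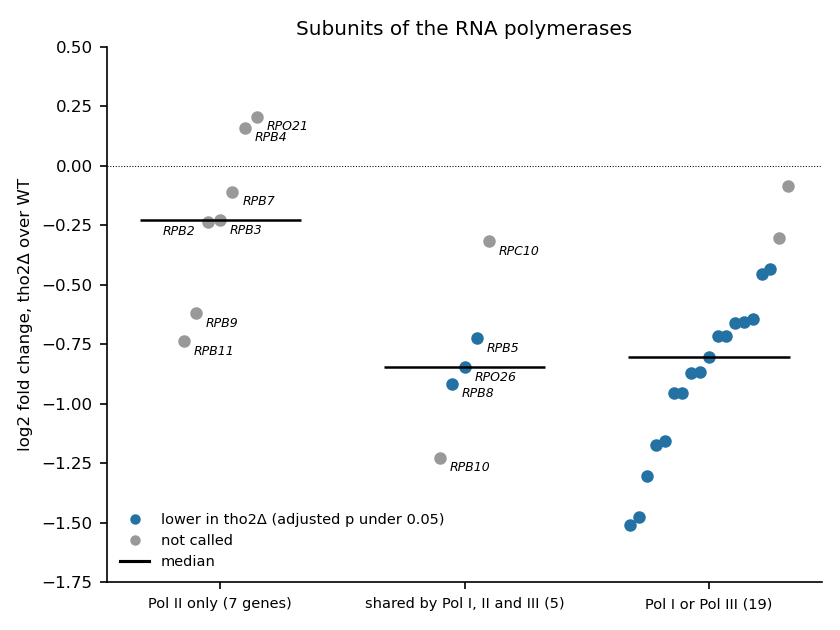
log2 fold change (*tho2Δ* over WT, vertical axis) of genes for subunits of Pol II alone, subunits shared by the 3 polymerases, and subunits of Pol I or Pol III, 1 point a gene, with a line at the median of each class. The medians are -0.23, -0.85 and -0.80, and blue points mark the genes called lower, 0 of 7, 3 of 5 and 17 of 19.

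Genes that work next to these in the Pol II cycle were counted from 6 further lists, by edgeR and against 18.8% of all genes higher and 19.1% lower. Of 16 genes for general transcription factors, which place Pol II at promoters, 4 were lower (25.0%) and 0 higher, led by *TOA2* (TFIIA) at -0.62 (SE 0.13), *TFG1* (TFIIF) at -0.49 (SE 0.12) and *SPT15* (TBP) at -0.36 (SE 0.11). Of 17 genes for histone marking during transcription, 4 were lower, with *BRE2* at -0.70 (SE 0.13), *SWD3* at -0.59 (SE 0.13) and *DOT1* at -0.55 (SE 0.13) leading, and 2 were higher, *SET1* and *RCO1*, at 0.39 (SE 0.10) and 0.46 (SE 0.12). *BRE2*, *SWD3* and *SET1* encode subunits of the same complex, COMPASS, which methylates histone H3. DESeq2 called 4 genes of this list lower and 0 higher, so the calls of *SET1* (adjusted p = 0.0636, Benjamini-Hochberg) and *RCO1* were lost there, and with library totals 0 were lower. Among 12 further genes listed under CTD and capping enzymes, *CCL1*, for the cyclin of the TFIIH kinase, was higher at 0.66 (SE 0.20). The other 11 were not called by edgeR. Of these, DESeq2 called *SYC1* lower (-0.80, adjusted p = 0.0276, Benjamini-Hochberg). *SYC1*, at -0.78 (SE 0.25) by edgeR, was counted in this list and is not in the CPF counts above. Of 6 genes for the assembly and import of Pol II, *NPA3* at -0.73 (SE 0.19) and *RBA50* at -0.49 (SE 0.14) were lower. Of 5 genes for poly(A) tail binding and trimming, *NAB2*, for the nuclear poly(A)-binding protein that restrains tail length, was higher at 0.87 (SE 0.23), and *PAB1*, for the cytoplasmic one, was lower at -0.54 (SE 0.14). *NRD1*, *NAB3* and *SEN1*, which end short noncoding transcripts, were at 0.15 (SE 0.17), -0.12 (SE 0.22) and 0.06 (SE 0.10), with 0 of 3 called by edgeR or DESeq2 and 0 at an unadjusted p under 0.05.

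The level of each transcript per gene length was compared in TPM. *GLC7* was the highest of the 46 in both strains, at 238 and 238 TPM in *tho2Δ*, against 155 and 94.7 TPM in WT, and *LEO1* the lowest, at 2.28 and 2.02 TPM in *tho2Δ* and 3.56 and 1.57 TPM in WT. Below *GLC7* came *RPB7*, *RPB11* and *SPT4* in *tho2Δ* libraries, at 105 to 108, 84.1 to 86.3 and 80.9 to 84.0 TPM, and the WT values of these 3 genes overlapped (60.9 to 119, 95.3 to 115 and 53.3 to 105 TPM). *RPB2*, *SPT16* and *RPO21* followed in *tho2Δ*, with ranges of 72.5 to 76.3, 71.9 to 76.0 and 53.6 to 89.7 TPM that overlapped. *PCF11* held rank 36 in *tho2Δ*, against rank 40 in WT, and *RAT1* held rank 29 in *tho2Δ*, against rank 19 in WT. The subunits of 1 complex were not at 1 level. In the Paf1 complex, *tho2Δ* libraries ranged from 2.02 TPM for *LEO1* to 20.96 TPM for *PAF1*, and WT libraries from 1.57 TPM for *LEO1* to 23.7 TPM for *CTR9*.

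Loss of THO is known to hinder transcription of long and G+C-rich sequences most, so coding length and base composition are given beside the changes. The 46 genes had a median coding length of 1332 bases (309 to 5202), against 1239 bases over 5744 protein-coding genes tested. The log2 fold change did not go with length, with Pearson's r of 0.0494 against log2 length and Spearman's rho of 0.0341 over the 46 genes, and -0.0238 and 0.0210 over the 5744. Of the 12 genes of at least 2000 coding bases, *RAT1*, *SPT6* and *CTR9* were lower and 0 were higher by edgeR, and of the 34 shorter genes, 1 was lower and 4 were higher. Among all protein-coding genes, 244 of the 1320 long ones were lower and 258 higher. Of the 4424 shorter ones, 873 were lower and 835 higher. Against G+C content, r was -0.358 and rho -0.274 over the 46 genes, and -0.0590 and -0.0919 over all. Without *RPB11* and *ESS1*, the 2 genes of highest G+C content, r was -0.187, and in both genes WT library 4 was far above the other libraries. Genes are not independent replicates and share the libraries, so these are descriptions without a test.

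**Figure D4:**
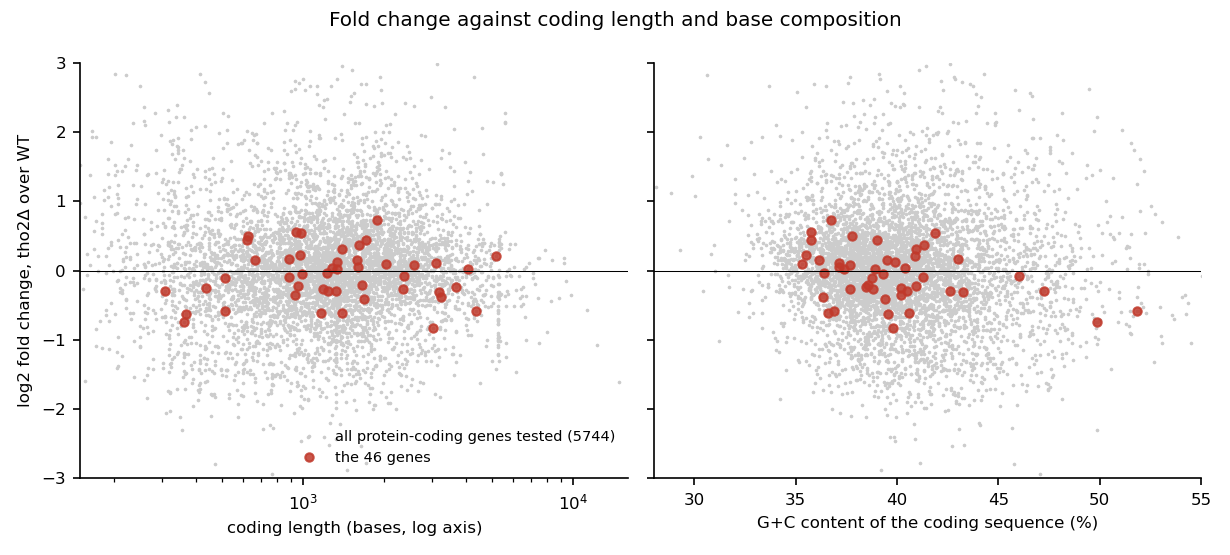
log2 fold change (*tho2Δ* over WT, vertical axis) against coding length (left, log axis) and G+C content of the coding sequence (right), with the 46 genes in red and 5744 protein-coding genes in grey. The red points show no trend with length (r = 0.0494) and lean downward with G+C content (r = -0.358), where *RPB11* and *ESS1* sit alone at the right. The axes leave out 33 grey genes beyond 3 on the log2 scale, 27 by length and 12 by G+C content.

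The level of the whole comparison rests on how the libraries are scaled. Read counts give shares of a library, so a lower share of a transcript and less RNA per cell cannot be told apart. With library totals in place of TMM, the median of all genes moved to 0.45, and the split of the calls moved to 20.5% higher and 5.14% lower, against 18.8% and 19.1% with TMM. Of the 46 genes, 4 were then higher (*PCF11* at 1.17, *GLC7* at 0.98, *PAP1* at 0.89 and *HRP1* at 0.86) and 0 lower by edgeR, with 0 lower at an unadjusted p under 0.05 too. In that fit *RAT1* was at -0.38, *RAI1* at -0.16, *SPT6* at -0.12 and *CTR9* at 0.05. Relative to the median of all genes there, *RAT1* was at -0.83, *RAI1* at -0.61, *SPT6* at -0.58 and *CTR9* at -0.40, and *PCF11* at 0.71. A change of scaling shifts every gene by nearly the same amount, so these relative values repeat the TMM values and are no separate check. The zero line and the calls of genes that fell thus depended on the scaling.

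**Figure D5:**
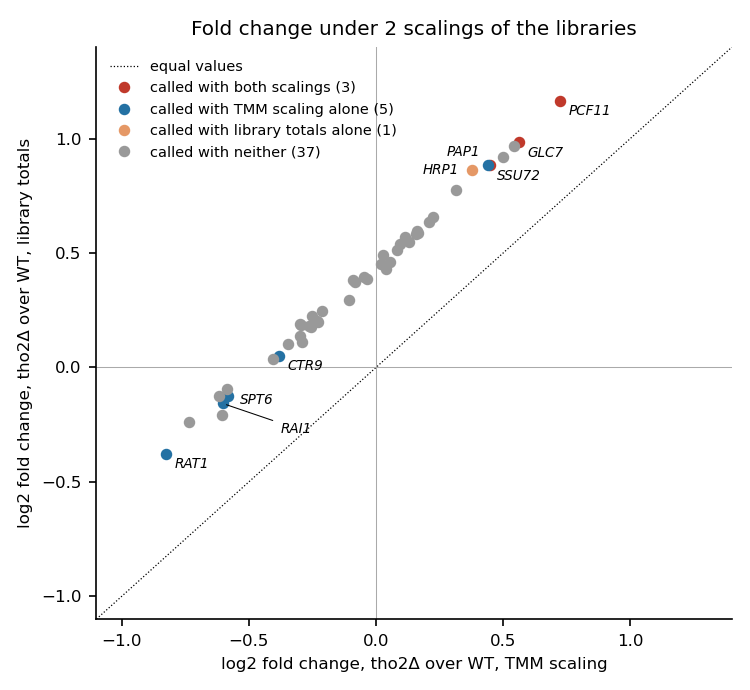
log2 fold change (*tho2Δ* over WT) of the 46 genes with TMM scaling (horizontal axis) and with library totals (vertical axis), with a dotted line at equal values. All points lie above the line, and 3 genes were called under both scalings, 5 with TMM alone, 1 with library totals alone and 37 with neither.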

How the data were processed

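The authors deposited 1 table that lists counts, TPM and FPKM of each gene. The submitters' processing notes name HISAT2 2.1.0 and StringTie 1.3.4d, bcl2fastq 2.20.0 and Trimmomatic, and the build R64. The sources do not give the role of each tool or the strand setting. The deposited counts are raw whole numbers. The deposited TPM values correct for gene length and for library total. The 4 FPKM columns were left aside, as were 3 empty lines.

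Counts of all genes were tested with edgeR 4.0.16 in R 4.3.3 (TMM scaling, filterByExpr leaving 5890 genes, a quasi-likelihood test of genotype with no other term, Benjamini-Hochberg adjustment at 0.05), and rows of the 46 genes were read from that fit. The standard error (SE) is the absolute log2 fold change over the square root of F. The common biological coefficient of variation was 0.158. The script was first tested on simulated data. With 31417222 to 36989697 counts per library, a count of 0 allows up to 3 counts, worth 0.0811 to 0.0955 CPM. Such limits cover counting error only.

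Against the ratio of library totals, without TMM, library pairs differed beyond sampling noise (median chi-square 2.42 in *tho2Δ* and 41.2 in WT). The WT value thus includes the offset between the TMM factors of 1.003 and 0.723. Each pair was counted as 2 libraries. All 46 genes matched the R64 annotation, by which length is coding length, and 0 overlap another gene. Sequences come from the RefSeq R64 genome, and motifs and heptads were found by script. The 46 genes, their roles, the 8 lists (83 genes) written from textbook knowledge, the motifs and the tests were chosen with earlier results of these data known. Values per library are given for up to 3 called genes with the smallest p in each role, for genes changed at least 2-fold, and for *RPO21*, *RNA14*, *PCF11*, *FIP1* and *PAP1*, and up to 3 called genes are named per list. Genes named outside this rule were chosen after their values were seen. The alternatives changed the scaling (library totals, or size factors by median of ratios), the tool (DESeq2 1.42.0, or limma 3.58.1 on TPM with a pseudocount of 1 or 0.1, for genes averaging at least 1 TPM), the filter (none, a mean count of at least 50, or genes free of overlaps), the design (a replicate block) or the libraries (each left out in turn). A lone library was assumed to vary like the other strain. Plots were made in Python 3.11.15 with matplotlib 3.10.9.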

Additional observations from a re-analysis of the deposited data

How the results depend on the processing

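Among the 46 genes, *PCF11* kept its call in 11 of 13 alternatives, *GLC7* in 9, *RAT1*, *RAI1*, *SPT6* and *PAP1* in 8, *SSU72* in 6 and *CTR9* in 4, and these 8 genes kept their direction in all of them except *CTR9*. The *CTR9* log2 fold change turned to 0.0503 with library totals and to 0.0200 and 0.0221 in limma with a pseudocount of 1 and 0.1 TPM.

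With each library left out in turn, 0 to 6 of the 46 genes were higher and 0 to 14 lower, their median log2 fold change was -0.11 to -0.03, and over all genes 307 to 1790 were higher and 200 to 1847 lower. For the 46 genes, library totals gave 4 higher and 0 lower, limma with a pseudocount of 1 TPM gave 3 and 0, and limma with 0.1 TPM gave 2 and 0, and 0 were lower at an unadjusted p under 0.05 in these 3 settings. Their median was then 0.38, 0.33 and 0.34, and over all genes 303, 319 and 262 were lower. A wider spread within WT than within *tho2Δ*, a pair of libraries per strain and the scaling of WT library 4 limit every call.

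The replicate numbers do not pair the libraries by any label, and same-numbered libraries did not deviate together (correlation 0.00146). With the number as a replicate block, the test called 2 of the 46 genes higher and 4 lower, among them *RPB11* and 5 of the original 8, and over all genes 1089 were higher and 1040 lower.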
